A study of Mus musculus with 6 samples.

Results

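The dystrophin complex and membrane repair genes are described here in C2C12 myotubes, multinucleated muscle cells made by fusion of a mouse myoblast line. The 9 genes Dmd, Utrn, Dag1, Sgca, Sgcb, Sgcd, Dysf, Cav3 and Sntb1 were taken by symbol from a count table of 46983 genes. All 9 had a row, and all 9 were among the 14450 genes tested. Cells had been differentiated for 7 days in medium with horse serum. They were then given either corticosterone, the main glucocorticoid of rodents, at 1e-07 M for 24 h, or ethanol as vehicle at 1 µL/mL for the same time. All cells were labelled wild type and came from this single line, so no other muscle or genetic background was sampled. Each treatment had 3 libraries, described as independent biological replicates, with total counts of 23877583 to 29928653. The study asked which genes differ between the treatments. Reads of a bulk culture cannot tell fewer cells of a type from less RNA per cell.

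Dystrophin is a long rod under the muscle membrane that ties cortical actin to the dystrophin-associated complex. In that complex dystroglycan spans the membrane and binds laminin outside, the sarcoglycans stabilise it, and syntrophins and dystrobrevin hang on its inner face as adaptors. Utrophin, the autosomal relative of dystrophin, can take its place and is abundant in immature muscle and at synapses. Dysferlin and caveolin-3 belong to the machinery that reseals torn sarcolemma and shapes its invaginations. Loss of single members causes muscular dystrophies, and glucocorticoids are used as treatment in dystrophin deficiency.

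Genes that glucocorticoids induce went against the labels in a pair of libraries, and this touches every comparison by label below. Fkbp5, a receptor co-chaperone, stood at 151, 36.9 and 135 CPM (read counts relative to library size, scaled by TMM) in corticosterone 1, 2 and 3, as the libraries are named here by label and replicate. Vehicle 1, 2 and 3 had 36.9, 177 and 35.4 CPM. Tsc22d3 and Per1 divided the libraries in the same way, so corticosterone 2 and vehicle 2 stood opposite to their labels for all 3 of these genes. The values of the 9 genes are therefore read by label, with the test, and also side by side in a second reading. It sets corticosterone 1, corticosterone 3 and vehicle 2 against corticosterone 2, vehicle 1 and vehicle 3. For further genes of the pathway this reading is given as counts and for the genes named with it. That second reading rests on measured values of glucocorticoid-induced genes, not on a label, so it is given with no mean and no test. Across all genes tested, the libraries also formed 3 pairs of nearest neighbours by correlation of log2 CPM. These were corticosterone 1 with vehicle 3 (r = 0.991), corticosterone 2 with corticosterone 3 (r = 0.989) and vehicle 1 with vehicle 2 (r = 0.991), and each pair held 1 library of higher and 1 of lower Fkbp5. Myotube markers were high throughout, with 12 of the 14 listed found in the table by symbol and summing to 13168 to 20288 CPM. The 7 listed genes of undifferentiated or dividing myoblasts were also present, summing to 232 to 283 CPM. By label 5 of these 7 lay lower and 2 higher, and 0 passed after adjustment. An unadjusted edgeR p under 0.05 was found for 4, against 11.8% of all genes. Without overlap between the labels, 3 were lower, against 8.19% of all genes. The adipocyte genes Adipoq, Cidec and Lep, the Schwann cell gene Sox10 and the leukocyte gene Ptprc had 0 counts in every library, which allows up to 0.103 to 0.125 CPM by counting error alone.

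No member passed the test by label. Of the 9 genes, 0 passed the edgeR quasi-likelihood test after Benjamini-Hochberg adjustment over all genes, where 0% of the 14450 genes passed. At an unadjusted p under 0.05 there were 0 of 9, against 11.8% of all genes (1707 genes). DESeq2 called 138 genes and limma-voom 0, with 0 members in either. The CPM of 0 of 9 genes was free of overlap between the labels, against 16.6% of all genes. In the second reading 0 of 9 were free of overlap, against 9.63%. The median log2 difference, corticosterone minus vehicle, was 0.08 over the 9 genes and 0.004 over all genes, with 5 positive and 4 negative. Calls over all genes were 29 without the library labelled corticosterone 1 and 11 without that labelled vehicle 3, none of them a member.

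Levels were compared between genes only per length, as CPM per kb of annotated exon over the 6 libraries. Dag1 was highest at 199 ± 21.4 (SD over 6 libraries), followed by Cav3 at 74.8 ± 11.8, Sgcb at 68.7 ± 6.12 and Sgca at 50.04 ± 6.53. Dysf followed at 19.6 ± 3.71, Utrn at 16.9 ± 1.69 and Sntb1 at 10.9 ± 2.75. Sgcd at 1.72 ± 0.21 and Dmd at 1.51 ± 0.28 were lowest. In this order, ranges over the libraries overlapped between Cav3 (63.1 to 93.1) and Sgcb (62.9 to 79.2), between Dysf (13.8 to 23.5) and Utrn (15.0 to 19.1), and between Sgcd (1.51 to 2.07) and Dmd (1.20 to 2.00). Utrn and Sntb1 also touched, since Sntb1 reached 15.3 in its highest library. The other neighbours did not overlap. The exon lengths are unions over all annotated transcripts, 23801 bases for Dmd, and with the longest coding transcript instead Dmd stood at 2.41 and Sgcd at 5.81, further apart, with the order of the 9 genes kept. On the union lengths, Utrn exceeded Dmd 12.8-fold, 13.0-fold and 11.3-fold in corticosterone 1, 2 and 3. In vehicle 1, 2 and 3 it did so 9.56-fold, 8.19-fold and 14.3-fold. With the longest coding transcripts the means were 23.4 for Utrn and 2.41 for Dmd, so the size of these folds depends on the length used. The ratio of Utrn to Dmd overlapped between the labels and was lowest in the pair vehicle 1 and vehicle 2.

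**Figure D1:**
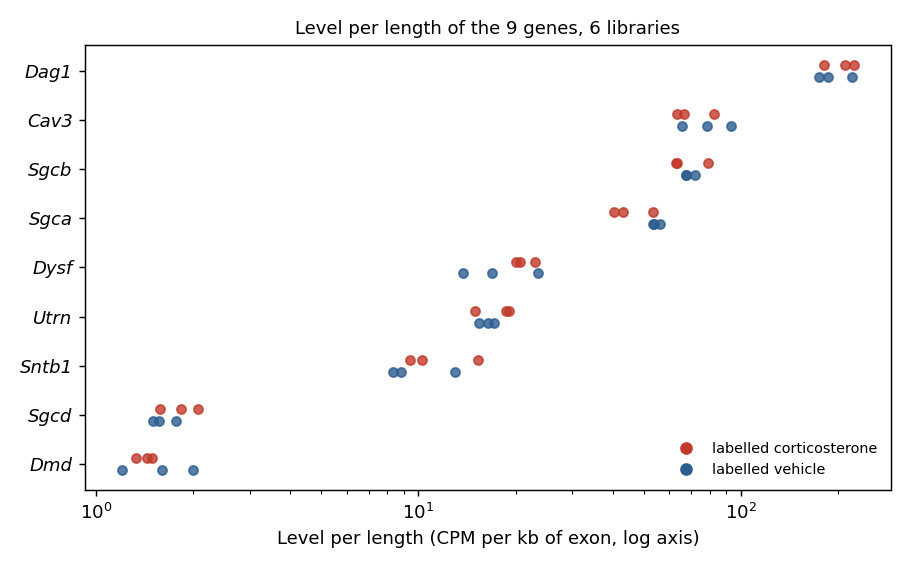
Level per length (CPM per kb of exon, log axis) of the 9 genes, 1 point for each of 6 libraries, coloured by label. Dag1 lies highest near 199, and Dmd and Sgcd lie lowest between 1.20 and 2.07.

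Dmd encodes dystrophin (ENSMUSG00000045103, GRCm38 chromosome X, 82948870 to 85206141, plus strand). It stood at 35.5, 34.3 and 31.6 CPM under the corticosterone label (replicates 1, 2 and 3, in this order throughout) and 38.3, 47.6 and 28.6 CPM under the vehicle label. Its highest and its lowest library both carried the vehicle label, and the vehicle values spanned those labelled corticosterone. The log2 difference was -0.18 ± 0.17 (SE, edgeR adjusted p = 0.681), with a 95% interval of 0.67-fold to 1.17-fold. It was -0.35 without vehicle 3, 0.013 without vehicle 2 and 0.0028 without both corticosterone 2 and vehicle 2. The second reading set 35.5, 31.6 and 47.6 against 34.3, 38.3 and 28.6 CPM, which overlap. Within the neighbour pairs, the library of higher Fkbp5 was higher in Dmd by 0.31 and 0.32 on the log2 scale in the pairs corticosterone 1 with vehicle 3 and vehicle 2 with vehicle 1. In the pair corticosterone 3 with corticosterone 2 it was lower, at -0.12. Counts were 686 to 1382 per library.

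The Dmd row sums several start sites. RefSeq places promoter windows, 250 bases before to 50 after a start, at 2 sites of the gene that lie 2099.4 kb apart. The annotated coding transcript of the first site (Dmd-203) has a coding length of 11034 bases and encodes the long muscle dystrophin, whereas Dmd-201 and Dmd-202, which start 3′ of the second site, have coding lengths of 1851 and 1812 bases and encode the short dystrophin of many non-muscle and precursor cells. The counts per gene cannot divide these products. Both windows are printed because they show what 1 row of the table pools: the first is 45.7% G and C, the second 62.7%. Capitals mark the glucocorticoid receptor half-site AGAACA, in either strand's letters, and the E-box CANNTG, the core bound by myogenic factors. Sequences are from RefSeq on GRCm38.p6, 5′ to 3′ on the gene's strand.
Dmd first start, chrX:82948620-82948919, plus strand: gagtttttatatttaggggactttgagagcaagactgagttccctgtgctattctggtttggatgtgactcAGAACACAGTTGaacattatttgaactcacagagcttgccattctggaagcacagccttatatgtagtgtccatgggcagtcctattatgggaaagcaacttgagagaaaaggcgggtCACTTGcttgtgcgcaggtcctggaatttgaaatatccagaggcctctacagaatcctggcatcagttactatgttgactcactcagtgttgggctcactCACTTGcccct
Dmd second start, chrX:85048045-85048344, plus strand: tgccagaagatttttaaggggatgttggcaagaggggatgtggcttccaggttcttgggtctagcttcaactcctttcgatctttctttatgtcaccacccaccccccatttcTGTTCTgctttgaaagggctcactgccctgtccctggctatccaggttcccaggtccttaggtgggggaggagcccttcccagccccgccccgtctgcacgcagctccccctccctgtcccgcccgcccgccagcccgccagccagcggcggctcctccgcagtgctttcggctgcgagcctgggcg
The first window held 1 half-site and 3 E-boxes, and the second held 1 half-site and 0 E-boxes. Of all 32851 promoter windows of this length, 19.0% held the half-site and 72.3% an E-box, so such matches are common. The full element, AGAACA followed after any 3 bases by TGTTCT, was in 0 of the 11 windows of the 8 members with an entry, and in 0.00913% of all windows. A match describes letters in a window and not a binding site.

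Utrn, which encodes utrophin (ENSMUSG00000019820, chromosome 10, 12382188 to 12869365, minus strand), stood at 326, 319.8 and 256 CPM under the corticosterone label and 263, 280.3 and 294 CPM under the vehicle label. The libraries labelled corticosterone held both its highest and its lowest value, and the labels overlapped. The log2 difference was 0.11 ± 0.11 (SE, edgeR adjusted p = 0.696), a 95% interval of 0.90-fold to 1.29-fold. It was 0.045 without corticosterone 1 and 0.21 without corticosterone 3, the ends of its range with 1 library left out. Values overlapped in the second reading too, at 326, 256 and 280.3 against 319.8, 263 and 294 CPM. Over the 6 libraries the Pearson r of Utrn with Dmd was -0.11, a description of libraries that form pairs.

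Dag1 encodes dystroglycan, the laminin receptor of the complex (ENSMUSG00000039952, chromosome 9, 108204634 to 108263958, minus strand), and had the largest counts of the 9 genes, 29350 to 40745 per library. It stood at 1423, 1333 and 1153 CPM under the corticosterone label and 1179, 1111 and 1404 CPM under the vehicle label. The pair corticosterone 1 and vehicle 3 lay highest, under opposite labels. The log2 difference was 0.08 ± 0.13 (SE, edgeR adjusted p = 0.806), a 95% interval of 0.86-fold to 1.30-fold, and it was -0.0040 without corticosterone 2 and vehicle 2. Single libraries moved it from 0.012 without vehicle 2 to 0.18 without vehicle 3. The second reading gave 1423, 1153 and 1111 against 1333, 1179 and 1404 CPM.

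The sarcoglycans form a subcomplex in the membrane beside dystroglycan, and its alpha, beta and delta subunits differed in level and in order over the libraries. Sgca, the subunit restricted to striated muscle (ENSMUSG00000001508, chromosome 11, 94962791 to 94976327, minus strand), stood at 92.8, 70.1 and 74.9 CPM under the corticosterone label and 93.3, 97.2 and 92.6 CPM under the vehicle label. Corticosterone 2 and 3 lay under every other library, whereas corticosterone 1 lay among those labelled vehicle. Its log2 difference of -0.25 ± 0.11 had the smallest p of the 9 genes (unadjusted p = 0.053, edgeR adjusted p = 0.427), with a 95% interval of 0.70-fold to 1.003-fold. With 1 library left out the log2 difference ran from -0.38 without corticosterone 1 to -0.17 without corticosterone 2. It was -0.15 without both corticosterone 2 and vehicle 2. In the second reading, 92.8, 74.9 and 97.2 CPM stood against 70.1, 93.3 and 92.6 CPM, and the values within each neighbour pair differed by 0.10 or less on the log2 scale.

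Sgcb (ENSMUSG00000029156, chromosome 5, 73632749 to 73647790, minus strand) stood at 321, 255 and 256 CPM against 274, 273 and 291 CPM by label, giving -0.010 ± 0.11 on the log2 scale (SE, edgeR adjusted p = 0.975) and a 95% interval of 0.84-fold to 1.18-fold. This value was 0.047 without corticosterone 2, 0.043 without corticosterone 3, 0.012 without vehicle 3 and 0.031 without both libraries numbered 2. Corticosterone 2 and 3 were again lowest, and corticosterone 1 was highest. The second reading gave 321, 256 and 273 against 255, 274 and 291 CPM. Sgcd (ENSMUSG00000020354, chromosome 11, 46896253 to 47988969, minus strand) was the lowest per length of the alpha, beta and delta subunits. It stood at 17.1, 13.1 and 15.2 CPM against 14.7, 13.0 and 12.4 CPM by label. Its counts of 298 to 489 per library gave 0.18 ± 0.13 on the log2 scale (SE, edgeR adjusted p = 0.606), a 95% interval of 0.91-fold to 1.40-fold. With 1 library left out the log2 value ran from 0.078 without corticosterone 1 to 0.27 without corticosterone 2. Its values in the second reading, 17.1, 15.2 and 13.0 against 13.1, 14.7 and 12.4 CPM, overlapped as well. Per length of exon, Sgcd stood at 0.0210 to 0.0290 of Sgcb and Sgca at 0.643 to 0.831 of Sgcb. Per length of the longest coding transcript the mean of Sgcd was 0.0790 of Sgcb, so this ratio depends on the length used. The ratio of Sgca to Sgcb was 0.675, 0.643 and 0.683 under the corticosterone label and 0.797, 0.831 and 0.743 under the vehicle label, which did not overlap. In the second reading the ratio overlapped, at 0.675, 0.683 and 0.831 against 0.643, 0.797 and 0.743. This ratio was 1 of several computed, was looked at after the values were known and was not tested. No share of other gene pairs without overlap was computed.

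Sntb1 encodes beta-1 syntrophin, an adaptor that binds dystrophin and dystrobrevin (ENSMUSG00000060429, chromosome 15, 55636388 to 55906949, minus strand), and had the widest range of the 9 genes. It stood at 81.7, 50.2 and 54.4 CPM under the corticosterone label and 46.9, 44.3 and 69.2 CPM under the vehicle label. Corticosterone 1 and vehicle 3 again lay above the other 4 libraries, which kept between 44.3 and 54.4 CPM. The log2 difference was 0.22 ± 0.23 (SE, edgeR adjusted p = 0.706), a 95% interval of 0.80-fold to 1.69-fold, and it ran from -0.031 without corticosterone 1 to 0.44 without vehicle 3. In the second reading, 81.7, 54.4 and 44.3 CPM stood against 50.2, 46.9 and 69.2 CPM.

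Dysf encodes dysferlin, the calcium-binding membrane protein of sarcolemmal resealing (ENSMUSG00000033788, chromosome 6, 84008590 to 84211060, plus strand). It stood at 192, 172 and 167 CPM under the corticosterone label and 115, 141 and 195 CPM under the vehicle label. All 3 libraries labelled corticosterone exceeded vehicle 1 and 2, and vehicle 3 exceeded them all. The log2 difference was 0.23 ± 0.18 (SE, edgeR adjusted p = 0.617), a 95% interval of 0.88-fold to 1.58-fold, and it was 0.46 without vehicle 3 (adjusted p = 0.119) and 0.065 without vehicle 1. The second reading gave 192, 167 and 141 against 172, 115 and 195 CPM. Of its exon bases, 4.23% and 1.26% are shared with the antisense genes Gm15475 and Gm33024, whose reads cannot be told apart without strand.

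Dysf has 2 annotated promoter windows, and the second is printed because it was the only one of the 11 windows searched, of 8 genes, with 2 half-sites. Cav3 is printed beside it as the only one of the 11 with the E-box letters CAGCTG, found in 16.3% of all windows. Capitals are as above.
Dysf second start, chr6:84019136-84019435, plus strand: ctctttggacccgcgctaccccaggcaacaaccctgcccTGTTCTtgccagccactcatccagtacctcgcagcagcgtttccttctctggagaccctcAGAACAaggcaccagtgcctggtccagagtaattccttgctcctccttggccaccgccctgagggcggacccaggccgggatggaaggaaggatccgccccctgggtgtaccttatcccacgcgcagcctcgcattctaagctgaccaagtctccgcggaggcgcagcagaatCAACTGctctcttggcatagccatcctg
Cav3, chr6:112459255-112459554, plus strand: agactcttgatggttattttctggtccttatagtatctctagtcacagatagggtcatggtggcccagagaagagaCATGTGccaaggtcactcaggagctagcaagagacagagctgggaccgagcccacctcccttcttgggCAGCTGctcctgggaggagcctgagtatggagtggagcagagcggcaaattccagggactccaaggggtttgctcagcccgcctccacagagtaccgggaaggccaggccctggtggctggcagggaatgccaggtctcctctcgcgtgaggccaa
Cav3 encodes caveolin-3, the muscle caveolin (ENSMUSG00000062694, chromosome 6, 112459505 to 112472872, plus strand). It stood at 95.3, 76.8 and 73.0 CPM under the corticosterone label and 75.7, 90.5 and 108 CPM under the vehicle label. Vehicle 3 was highest and corticosterone 3 lowest, with the remaining values interleaved. The log2 difference was -0.16 ± 0.15 (SE, edgeR adjusted p = 0.674), a 95% interval of 0.70-fold to 1.14-fold. With 1 library left out it ran from -0.29 without corticosterone 1 to -0.033 without vehicle 3. In the second reading, 95.3, 73.0 and 90.5 CPM stood against 76.8, 75.7 and 108 CPM.

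**Figure D2:**
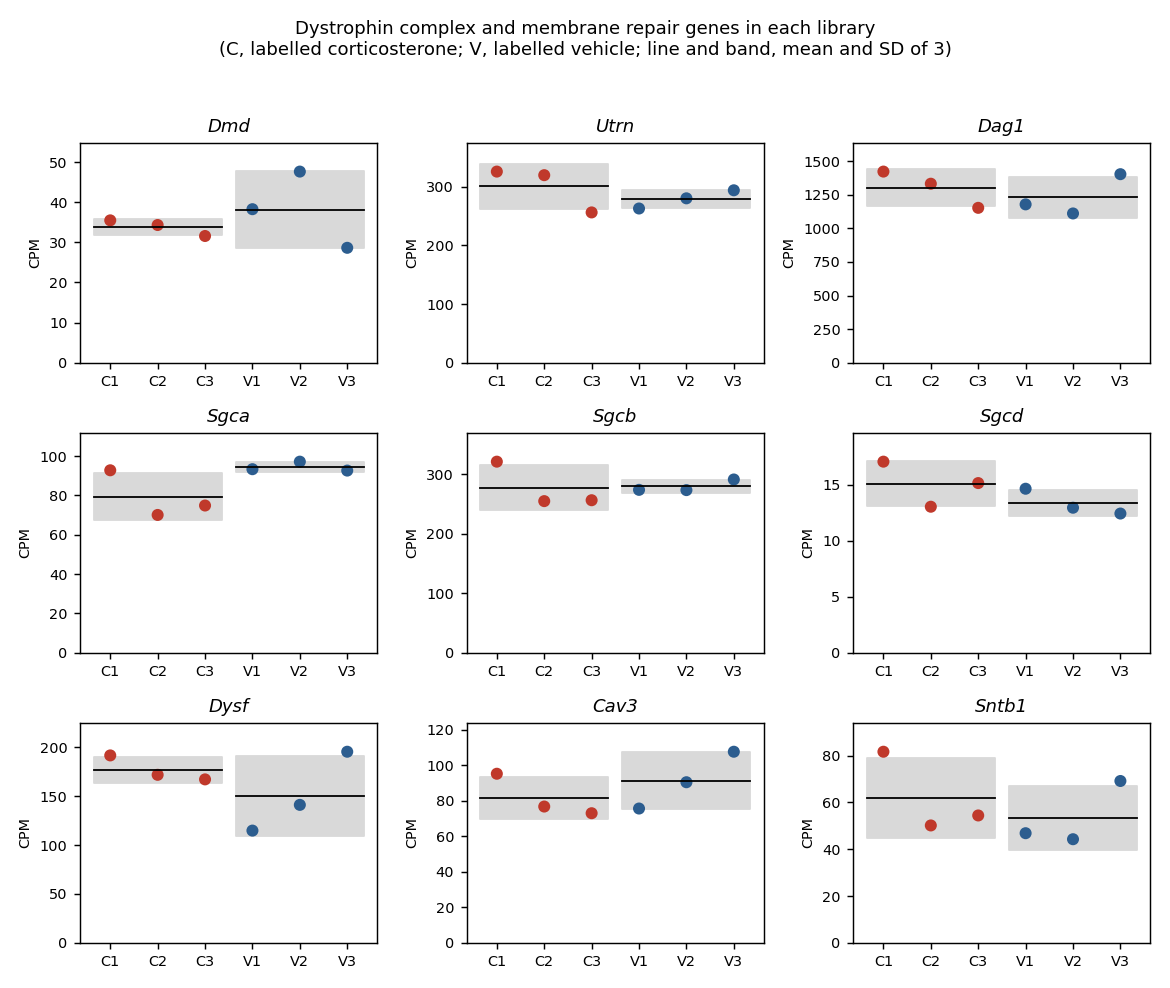
CPM (from 0) of each of the 9 genes in the 6 libraries, with C1 to C3 labelled corticosterone and V1 to V3 labelled vehicle, and the mean (line) and SD (band) of each 3. The labels overlap in every panel, and C1 and V3 lie highest together for Dag1, Sgcb, Dysf, Cav3 and Sntb1.

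**Figure D3:**
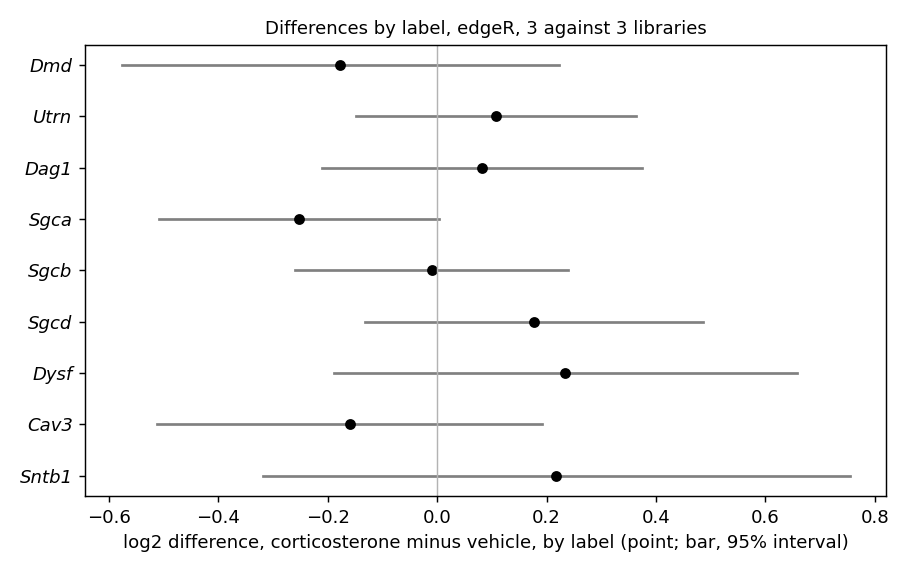
log2 difference by label (corticosterone minus vehicle, edgeR) of each gene, as a point with its 95% interval, from 3 against 3 libraries. All 9 intervals include 0, and that of Sgca ends closest to it.

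The neighbour pairs of libraries, which had been defined over all genes tested, were then read for the members. The mean absolute difference in log2 CPM between pair means exceeded that within pairs for 7 of 9 genes, all except Utrn and Sgcd, and for 61.2% of all genes tested, as the choice of pairs favours. Sntb1 gave 0.48 between and 0.15 within pairs, Dysf 0.40 and 0.12, Sgca 0.26 and 0.052. The pair corticosterone 1 and vehicle 3 had the highest mean for 7 of 9 genes, against 29.7% of all genes tested. Dmd and Sgca were highest in the pair vehicle 1 and vehicle 2 instead. These shares were not tested. Corticosterone 1 was the highest of all 6 for 5 genes. The myotube list was highest in corticosterone 1 and vehicle 3 by its sum and for 7 of its 12 genes, whereas Myog, Acta1 and Myh3 were highest in corticosterone 2 and 3 and Myh2 and Mylpf in vehicle 1 and 2. Its summed levels were 20288 and 17901 CPM in corticosterone 1 and vehicle 3, 17031 and 17129 CPM in corticosterone 2 and 3, and 13168 and 14756 CPM in vehicle 1 and 2. Mitochondrially encoded genes took 2.53% and 2.76%, 2.46% and 2.39%, and 1.69% and 1.67% of counts in the same pairs. The fibroblast list was lowest in corticosterone 1 and vehicle 3, at 2859 and 2946 CPM against 3426 to 5958 CPM elsewhere, nearly all of it from Col1a1 and Col3a1. The part of these measures in the members' levels was not tested.

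**Figure D4:**
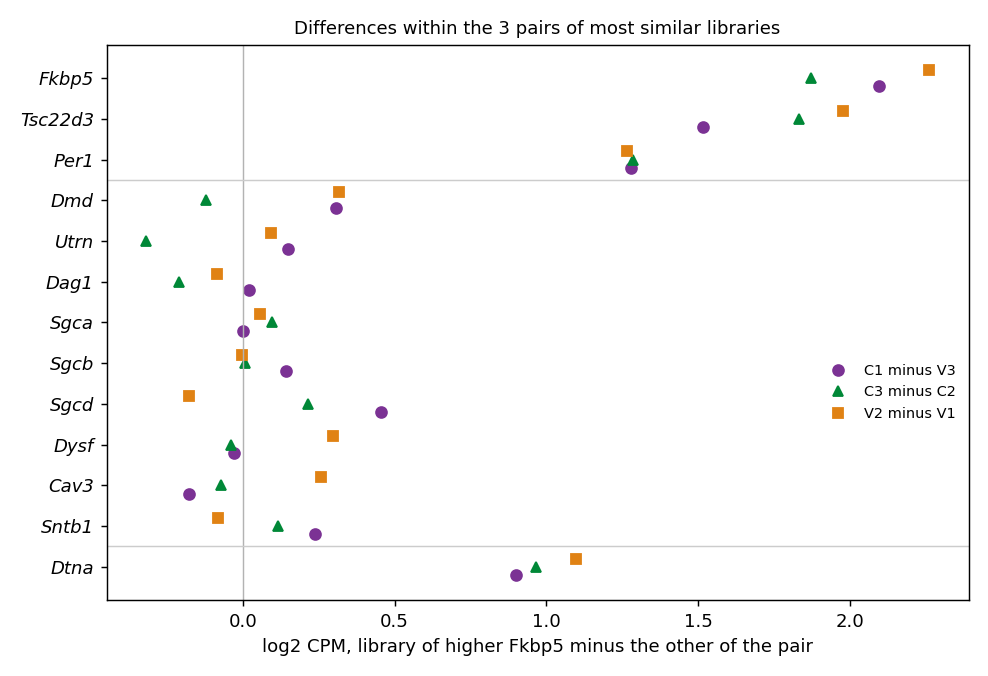
Difference in log2 CPM within each neighbour pair, the library of higher Fkbp5 minus the other, for 3 glucocorticoid-induced genes (top), the 9 genes (middle) and Dtna (bottom), with 1 symbol per pair. Fkbp5 lies between 1.87 and 2.26, the 9 genes lie between -0.32 and 0.45, and Dtna lies between 0.90 and 1.10. Dtna was singled out after its values were seen, and its lack of overlap in the second reading fixes its signs here.

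Within those pairs the 9 genes took both signs, and Sgca alone had 3 differences above 0, at 0.0023, 0.095 and 0.058. The largest was 0.45 for Sgcd in corticosterone 1 against vehicle 3, beside 0.22 and -0.18 in the other pairs. Fkbp5, by which the direction within pairs was set, differed by 2.09, 1.87 and 2.26. Over the 6 libraries the strongest likeness among members was between Dag1 and Sntb1 (Pearson r = 0.83) and the most opposed were Dmd and Dysf (r = -0.63). Outside the list, the genes most like Dmd were Gpr176 (r = 0.992), Map3k3 (r = 0.990) and Tfb2m (r = 0.988). Those most like Sntb1 were Pick1 (r = 0.994), Igfn1 (r = 0.993) and Pygm, the muscle glycogen phosphorylase gene (r = 0.992). These are the highest of 10640 genes of at least 5 CPM over only 6 libraries, where 20 genes exceeded an r of 0.95 with Dmd and 56 with Sntb1.

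The other genes of the pathway were read from 6 lists, of which 96 genes in all were tested. Of these 96, 0 passed by label with all libraries, and 17 had an unadjusted p under 0.05, where 11.8% of all genes did. There were 61 positive and 35 negative log2 differences, against 7343 positive and 7107 negative over all genes tested. The median was 0.055, against 0.004 over all genes. Counts of higher and lower genes, here and by list below, were not tested. The labels were free of overlap in CPM for 9 higher and 5 lower genes, against 8.41% and 8.19% of all genes.

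Among 9 tested other subunits of the complex, 0 passed, 4 lay higher and 5 lower by label, with a median of -0.055. Sspn and Nos1 were among the genes of smallest p. Sspn encodes sarcospan, the small tetraspan-like protein bound to the sarcoglycans, and stood at 90.2, 60.8 and 71.3 CPM against 109, 102 and 82.5 CPM by label. Its log2 difference was -0.40 ± 0.16 (SE, edgeR adjusted p = 0.408), and corticosterone 1 overlapped vehicle 3. Nos1 encodes the nitric oxide synthase that docks on the complex, and stood at 7.86, 10.5 and 8.29 CPM against 25.7, 27.8 and 6.26 CPM. The pair vehicle 1 and 2 stood apart from the other 4 libraries, and the log2 difference was -1.17 ± 0.48 (adjusted p = 0.411). Without vehicle 3 it was -1.60 and passed (edgeR adjusted p = 0.0322), the single call among these 96 genes in any alternative. That setting called 11 of 14793 genes. Its spread within the vehicle label rests on vehicle 1 and 2 alone, which are a neighbour pair.

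Dtna, which was singled out after its values were seen, did not overlap in the second reading. Dtna encodes alpha-dystrobrevin, a dystrophin relative that binds both dystrophin and syntrophin, and stood at 145, 143 and 123 CPM in corticosterone 1, corticosterone 3 and vehicle 2, and at 73.0, 57.5 and 77.9 CPM in corticosterone 2, vehicle 1 and vehicle 3. The 3 libraries of higher Fkbp5 were thus the 3 of higher Dtna, by 0.90, 0.96 and 1.10 on the log2 scale within neighbour pairs. The sign of these differences follows from the lack of overlap, since each pair held 1 library of each kind. By label the difference was 0.48 ± 0.33 (SE, edgeR adjusted p = 0.584). Of the 96 genes, 5 were higher without overlap in this reading and 2 lower, against 4.89% and 4.74% of all genes, so their number is near the background. Beside Dtna these included Anxa2, Cavin1 and Itgb1bp2, higher, and Pomk and Lamb1, lower. Itgb1bp2, which encodes the muscle protein melusin, differed within pairs by 0.42, 0.66 and 0.61, with signs fixed in the same way.

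In the 17 tested genes of dystroglycan glycosylation, which build the sugar chain that laminin binds, 0 passed, 9 lay higher and 8 lower, with a median of 0.0016. B4gat1, a glucuronyltransferase of that chain and the most abundant of the list per length, stood at 57.3, 58.3 and 52.8 CPM against 75.8, 69.1 and 61.0 CPM by label (log2 difference -0.29 ± 0.097, edgeR adjusted p = 0.364). Pomt2, an O-mannosyltransferase, stood at 29.0, 23.3 and 25.8 CPM against 30.9, 35.9 and 30.4 CPM (-0.32 ± 0.11, adjusted p = 0.374). Gmppb, which makes GDP-mannose, stood at 15.7, 19.9 and 24.5 CPM against 15.0, 15.2 and 15.1 CPM (0.41 ± 0.16, edgeR adjusted p = 0.400). B4gat1, Pomt2 and Gmppb did not overlap between the labels, and each overlapped in the second reading. Of the 17 genes, 5 were higher and 2 lower by label without overlap, against 8.41% and 8.19% of all genes.

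Membrane repair and fusion genes gave 0 of 23 passing, 13 higher and 10 lower, with a median of 0.027. Anxa4, a calcium-dependent membrane-binding annexin, stood at 195, 184 and 198 CPM against 164, 167 and 167 CPM by label, with no overlap (log2 difference 0.21 ± 0.068, edgeR adjusted p = 0.364). Fer1l5, a relative of dysferlin, stood at 7.57 ± 0.44 against 9.86 ± 1.19 CPM (SD, n = 3 each) with no overlap, a difference of -0.38 ± 0.14 (SE, edgeR adjusted p = 0.379). In the second reading Anxa4 and Fer1l5 overlapped. Vps4a, the ATPase that disassembles ESCRT filaments, differed by -0.27 ± 0.11 (edgeR adjusted p = 0.408). The most abundant per length, Anxa6, stood at 749 ± 76.3 against 710.5 ± 72.4 CPM (SD, n = 3 each, edgeR adjusted p = 0.803).

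Of 16 genes of caveolae and T tubules, 0 passed and 12 lay higher, with a median of 0.095. Ehd4, an endocytic ATPase, stood at 480.3, 434 and 517 CPM against 342, 413 and 407 CPM by label, with no overlap (log2 difference 0.30 ± 0.11, edgeR adjusted p = 0.382). Ehd4 overlapped in the second reading. Mtm1, the myotubularin phosphatase, differed by -0.32 ± 0.13 (edgeR adjusted p = 0.408). Cav1, the caveolin of most non-muscle cells, stood at 154, 237 and 285 CPM against 185, 163 and 131 CPM (0.50 ± 0.22, adjusted p = 0.434), lowest in vehicle 3 and corticosterone 1, the libraries in which Cav3 was highest. Bin1, which tubulates membranes and was the most abundant per length, differed by 0.0084 ± 0.12 (adjusted p = 0.982).

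Costamere and intermediate filament linkers gave 0 of 20 passing and 14 higher, with a median of 0.085. Vcl, which encodes vinculin, stood at 502, 457 and 443 CPM against 325, 375 and 440.2 CPM by label (log2 difference 0.30 ± 0.12, edgeR adjusted p = 0.409), and the highest vehicle value lay just under the lowest labelled corticosterone. Vcl overlapped in the second reading. Ank2, an ankyrin that helps to place dystrophin, differed by -0.26 ± 0.14 (edgeR adjusted p = 0.506). The talin gene Tln2 differed by 0.16 ± 0.097 (edgeR adjusted p = 0.532). Des, which encodes desmin and was the most abundant per length, differed by -0.044 ± 0.12 (adjusted p = 0.896). Of 11 laminins and matrix partners of dystroglycan, 0 passed and 9 lay higher, with a median of 0.10. Lamc1, a laminin chain, stood at 250.5, 241 and 216 CPM against 177, 188 and 222 CPM (0.27 ± 0.11, edgeR adjusted p = 0.403). Hspg2, which encodes perlecan, differed by 0.44 ± 0.22 and Bgn, which encodes biglycan and was the most abundant per length, by 0.23 ± 0.20 (adjusted p = 0.459 and 0.660).

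**Figure D5:**
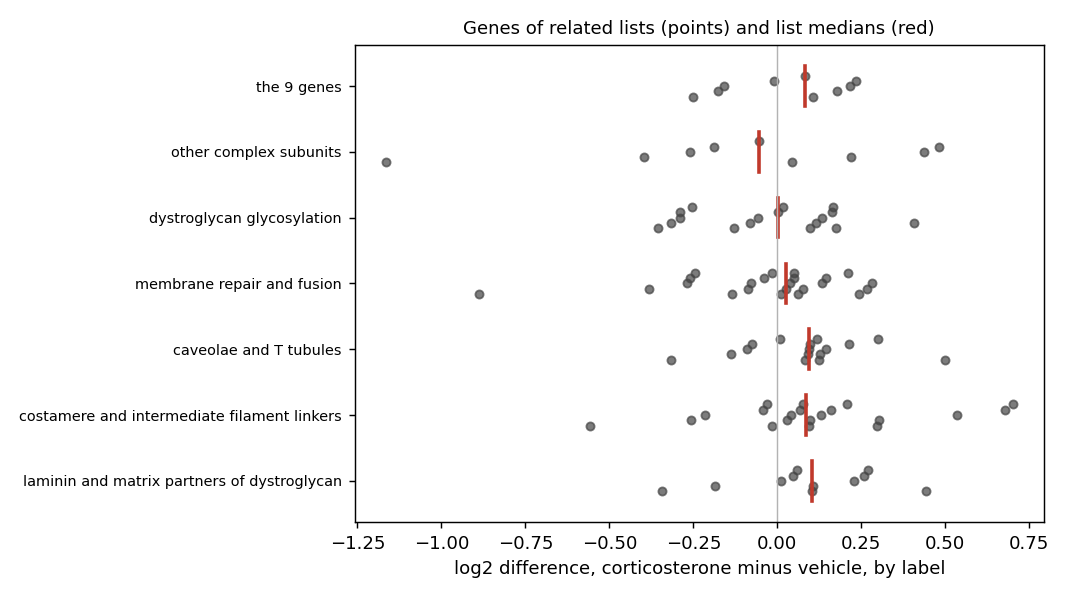
log2 difference by label (corticosterone minus vehicle) of each tested gene of the 9 and of the 6 related lists, 1 point per gene, with the list median as a red bar. Medians lie between -0.055 and 0.10, and no point passed the test.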

How the data were processed

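RNA was measured by poly(A) sequencing in 6 libraries. The authors deposited raw read counts per gene. Per the submitters' processing notes, HISAT2 2.0.5, HTSeq 0.6.1, DESeq2 1.24.0 and mm10 were used, while the annotation release, strand setting and filters are not stated in those notes or in the labels. Of the gene IDs, 98.95% matched GENCODE M21 (GRCm38), which gave coordinates and exon lengths. Every row named a gene, and no column was left out.

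Labels were compared by edgeR 4.0.16 (R 4.3.3) quasi-likelihood tests with TMM scaling and filterByExpr, two-sided, with Benjamini-Hochberg adjustment over 14450 genes and a threshold of 0.05. The fit was tested on simulated data. CPM are TMM-scaled, and log2 CPM used a prior count of 2. Alternatives were DESeq2 1.42.0, limma-voom (limma 3.58.1), scalings, filters, a replicate block and left-out libraries. P-values measure only the spread between these libraries. Intervals are at 95%. The members, lists and left-out libraries were chosen with earlier results of these data known. The text names the 9 genes and, per list, the 3 of smallest p and the most abundant per length, apart from items not reported here. Vamp7 was not found in the table by symbol, and 6 other listed genes were under the filter. Promoter sequences came from RefSeq (GRCm38.p6), with an entry for 8 of 9 genes.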

Additional observations from a re-analysis of the deposited data

How the results depend on the processing

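No member passed under any of the 15 alternatives, and adjusted p ran from 0.119 to 0.999. The count over all genes was 138 with DESeq2 (68 higher, 70 lower), 0 to 29 with each library left out in turn, and 3 without the libraries labelled corticosterone 2 and vehicle 2. The cause was not tested. It was 0 with limma-voom, under 3 other scalings and 2 other filters, and with the replicate number as a block. Same-numbered libraries did not deviate together (r = -0.153, -0.266 and -0.325 for numbers 1, 2 and 3). Corticosterone 2 and vehicle 2 stood opposite to their labels in glucocorticoid-induced genes, so these correlations cannot decide whether same-numbered libraries shared a culture. No block by number is stated in the design description, and the block changed no call. Of 135 member values, 127 kept their sign and 8 did not, all with libraries left out. Leaving out 1 library gave -0.35 to 0.013 for Dmd, -0.13 to 0.047 for Sgcb and -0.031 to 0.44 for Sntb1. Without both libraries numbered 2 the values were 0.0028 for Dmd, -0.0040 for Dag1 and 0.031 for Sgcb. Depth limits Sgcd most, with 298 counts in its shallowest library.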
